A study of Arabidopsis thaliana with 9 samples.

Results

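Cytochrome P450 enzymes are haem proteins that add oxygen to small molecules and draw their electrons from NADPH through a reductase. Plants carry a large P450 family, in which the number after CYP names the family and the following letter the subfamily, and the enzymes serve hormone, pigment, cell wall and defence chemistry. The CYP71 family is one of the most expanded in Arabidopsis thaliana, many of its genes stand side by side in tandem runs, and most CYP71B enzymes have no assigned substrate.

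The genes described here are those whose probe set the array's annotation assigns to 1 gene with a symbol of CYP and a digit. Cyclophilins, which share the CYP prefix, were removed (2 of 26 such symbols), and so by definition were 6 P450 genes of camalexin and aliphatic glucosinolate synthesis, none of which the annotation listed. This left 24 genes, each with 1 probe set, out of 13287 genes with a probe set of their own, while the RefSeq gene table holds 237 P450 symbols. Of the 24, 19 belong to subfamily CYP71B, of which that table holds 36 symbols, and the others are CYP51G2, CYP718, CYP78A9, CYP79A2 and CYP84A4. The results are therefore mostly about CYP71B genes. The rule for membership refers to names and holds no measured value of a comparison; the set was proposed with earlier results of these data known.

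Leaves of 3-week-old Arabidopsis plants in the Columbia-0 background were measured on 9 arrays, 3 for each of the genotypes cat2, cat2 rbohD and cat2 rbohF. All plants lacked CAT2, the main leaf catalase, and grew in 16 h of light a day at 200 umol m-2 s-1, a level the labels describe as driving oxidative stress in this background. The double mutants also lacked RBOHD or RBOHF, NADPH oxidases of the plasma membrane that produce superoxide outside the cell. Each array held RNA of a separate biological replicate, a pool of leaves of at least 8 plants; wild-type plants were not analysed here. Each difference is therefore relative to plants without CAT2, and each oxidase is represented by 1 double mutant line, titled cat2-2 atrbohD or cat2-2 atrbohF. No probe set was named for CAT2, RBOHD or RBOHF, so the genotypes rest on the labels.

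Of the fixed marker genes, 4 of 30 had a named probe set. The leaf marker RCA (Rubisco activase) was at 14.09 to 14.19 on all 9 arrays (log2). Replicates 1 and 3 of every genotype had the identical value of 14.15, and whether this probe set had reached the top of its range was not tested. The 1 named root marker, PYK10, was at 6.96 to 8.11 in cat2, 7.83 to 8.11 in cat2 rbohD and 8.71 to 9.17 in cat2 rbohF. The 1 named marker of senescing leaves, the sugar transporter gene SAG29, was at 5.22 to 5.69, 5.69 to 6.56 and 5.94 to 7.93. Both were higher in cat2 rbohF than in cat2 by 1.35 ± 0.25 and 1.59 ± 0.42 (log2 fold change ± SE; limma adjusted p = 0.00836 and 0.0326). The guard cell marker FAMA was at 5.37 to 5.48 in cat2, 5.11 to 5.27 in cat2 rbohD and 5.41 to 5.69 in cat2 rbohF, and passed in no comparison; the double mutants did not overlap (log2 difference 0.41, limma adjusted p = 0.0527). The SAG29 difference did not pass when replicate 1, 2 or 3 of cat2, or replicate 1 or 3 of cat2 rbohF, was left out (limma adjusted p up to 0.113). The 3' minus 5' signal of a GAPDH control pair, a measure of RNA integrity, was 0.75 ± 0.06 in cat2, 0.86 ± 0.08 in cat2 rbohD and 0.91 ± 0.07 in cat2 rbohF (log2, SD, n = 3), and that of another GAPDH pair ran the other way, at -0.03, -0.13 and -0.22. The same measure of an actin pair was 1.33 to 1.49 on the cat2 rbohD arrays, above all cat2 (1.16 to 1.29) and cat2 rbohF (1.24 to 1.29) arrays, while the genotypes overlapped for both ubiquitin pairs. The part of these signals in the P450 results was not tested. On the first principal component (49.0% of the variance) cat2 rbohD replicate 3 scored 10.4, against -10.1 and -10.7 for the other cat2 rbohD arrays, and so lay toward cat2 rbohF, at 14.4 to 26.2. For the genes that fell in cat2 rbohF and for CYP71B36, values that involve cat2 rbohD are given with and without it below.

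Expression values are on the log2 scale, and a gene was tested where its third-highest array exceeded 5.14, the 40th percentile of all values. Of the 24 P450 genes, 13 met this and 11 did not. CYP84A4, which acts in the synthesis of phenylalanine-derived arabidopyrones, was the tested gene closest to the limit with a third-highest value of 5.18, and it passed on 2 cat2 rbohD arrays and 1 cat2 rbohF array. CYP718 was the closest gene below it, at 4.77.

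The 11 genes below the limit stayed between 3.14 and 4.90 on all 9 arrays. They include CYP79A2, which turns phenylalanine into an aldoxime on the way to benzylglucosinolate (3.77 to 4.03), CYP71B31, known for oxidising linalool in flowers (3.15 to 3.40), and CYP51G2, a relative of the sterol 14-demethylase (4.01 to 4.29). The RefSeq table lists CYP51G2 and CYP71B27 as transcribed pseudogenes, and both lie among these 11. CYP71B30P, whose symbol marks it as a pseudogene, is listed as protein-coding and was also below the limit, at 3.18 to 3.41. The remaining ones are CYP718, CYP71B16, CYP71B21, CYP71B25, CYP71B37 and CYP71B38. Their mean differences from cat2 ran from -0.15 to 0.17 in cat2 rbohF and from -0.09 to 0.11 in cat2 rbohD, and at this signal a change was not detectable, which does not show that there was none.

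Setting cat2 rbohF against cat2 shows which of these genes differ when leaves without the catalase also lack RBOHF. CYP71B22, CYP71B23, CYP71B24 and CYP71B6 fell and no P450 gene rose. CYP71B22 fell most, to 2.02-fold lower than in cat2. The 4 falls among 13 tested genes (30.8%) stand beside 16.4% of all 13888 tested probe sets that passed in either direction and 9.89% that passed as lower. With 13 genes, of which several are neighbours in the genome, nothing particular to P450 genes was read from this. The median log2 fold change was -0.05 for the 13 tested genes and -0.02 for all 24, against 0.01 for all tested probe sets and 0.02 without the filter.

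CYP71B22 was at 8.19, 8.12 and 8.01 on the cat2 arrays and at 7.14, 7.20 and 6.93 on the cat2 rbohF arrays. The lowest cat2 array lay well above the highest cat2 rbohF array. Its log2 fold change was -1.02 ± 0.23 (SE; limma adjusted p = 0.0182). In a pool of whole leaves, fewer cells that express a gene and less RNA in each of them cannot be told apart, here and for the other genes.

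CYP71B23 was at 9.43, 9.50 and 9.36 in cat2 and at 8.43, 8.92 and 8.30 in cat2 rbohF. Replicate 2 was the highest cat2 rbohF array, still below all of cat2. The log2 fold change was -0.88 ± 0.21 (SE; limma adjusted p = 0.0212), 1.84-fold lower.

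CYP71B24 was at 7.83, 8.24 and 8.00 in cat2 and at 7.26, 7.69 and 7.18 in cat2 rbohF. As for CYP71B23, replicate 2 was the highest array in both genotypes, and its cat2 rbohF value came near the lowest cat2 value without reaching it. The gene fell by 0.65 ± 0.18 on the log2 scale (SE; limma adjusted p = 0.0375), 1.57-fold.

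CYP71B6 converts indole-3-acetonitrile in the formation of indole carboxylic acids, tryptophan-derived defence compounds, and is the 1 of these 4 genes for which a substrate is stated here. Its values were 9.53, 9.55 and 9.79 in cat2 and 8.97, 9.25 and 9.06 in cat2 rbohF. It fell by 0.53 ± 0.12 on the log2 scale (SE; limma adjusted p = 0.0178), 1.44-fold, the smallest of the 4 falls, with the smallest standard error.

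**Figure D1:**
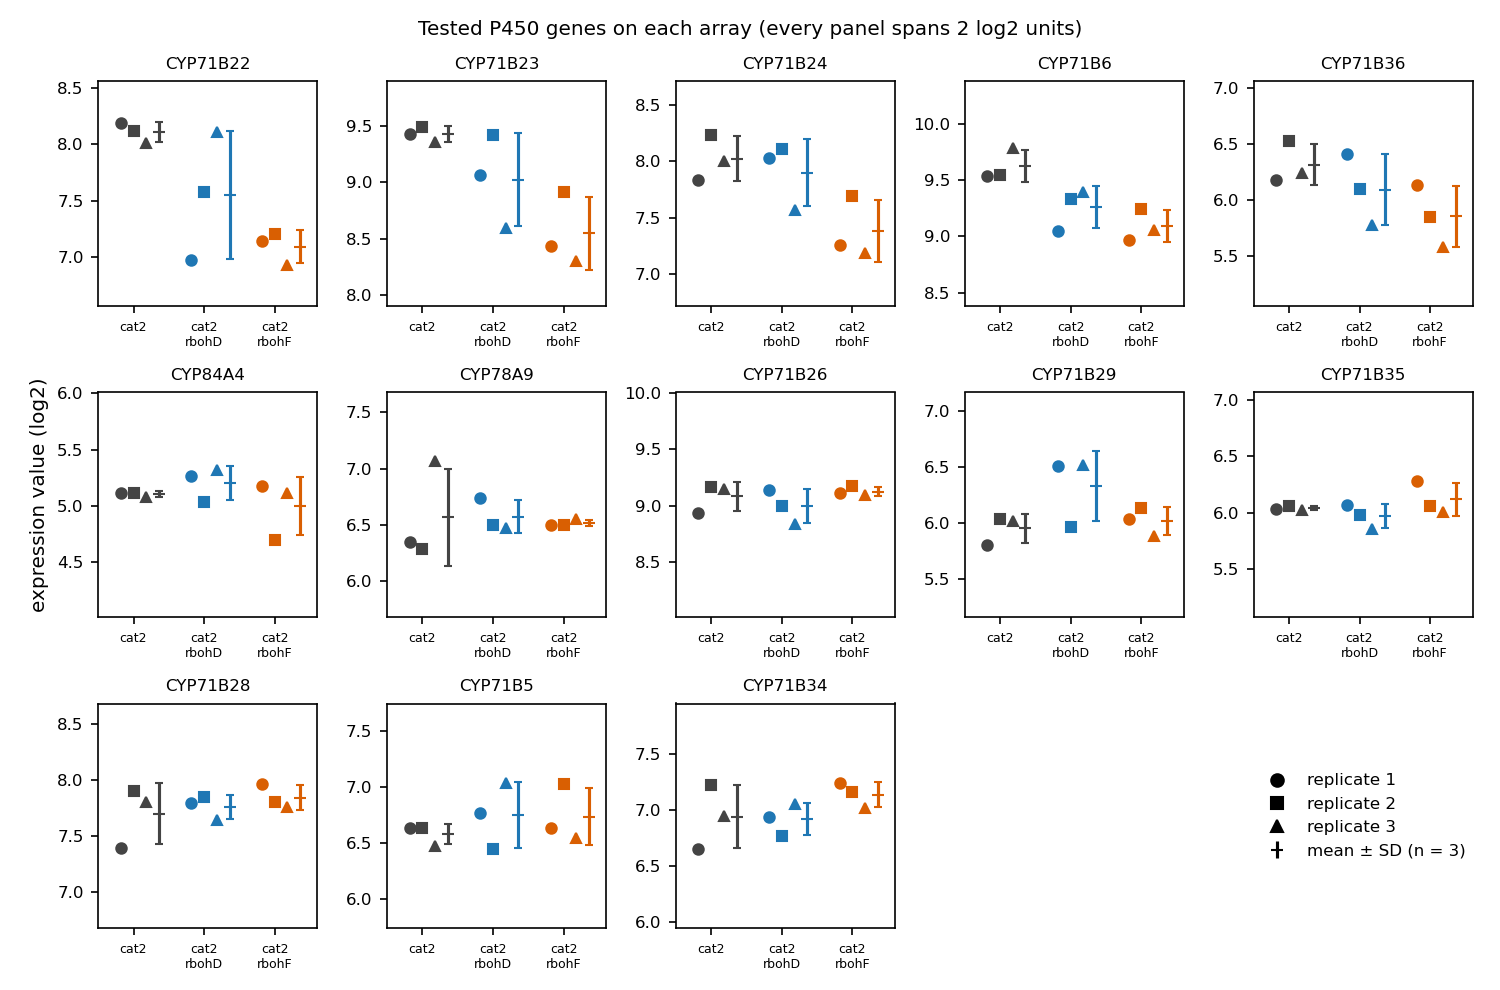
Expression (log2, vertical axes) of the 13 tested P450 genes on each of the 9 arrays, by genotype, with the mean ± SD of 3 replicates beside each group; every panel spans 2 log2 units. CYP71B22, CYP71B23, CYP71B24, CYP71B6 and CYP71B36 are lower on all 3 cat2 rbohF arrays than on any cat2 array, and the other 8 genes overlap.

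Calls in this comparison were sensitive to leaving out single arrays, over all tested probe sets as well as for the P450 genes. Of all tested probe sets, 2273 passed with all arrays, 817 without cat2 rbohF replicate 1 and 1099 without cat2 rbohF replicate 3. All 4 genes missed the threshold without cat2 rbohF replicate 1 and likewise without replicate 3, with limma adjusted p of 0.0623 to 0.131 and 0.0632 to 0.131, although the log2 fold changes stayed between -0.47 and -1.04. The count was 2 without cat2 replicate 1, 1 without cat2 replicate 2 (CYP71B6) and 1 without cat2 replicate 3 (CYP71B22). Of all tested probe sets, 1653, 1080 and 1404 passed in the same settings, in that order. Over all 18 alternative settings CYP71B6 kept its call in 15, CYP71B22 in 14, and CYP71B23 and CYP71B24 in 13 each, as the plot of adjusted p by setting shows.

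**Figure D2:**
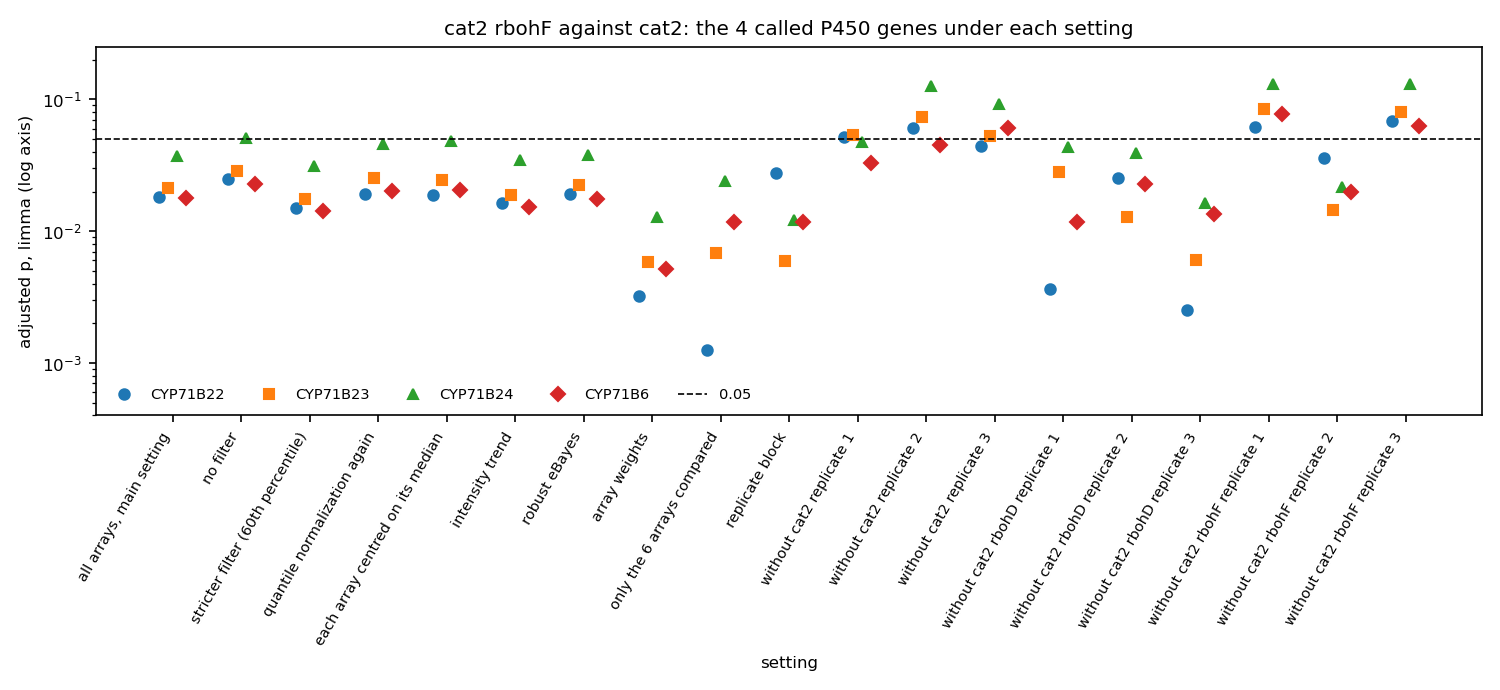
Benjamini-Hochberg adjusted p (limma, log axis) of the 4 called P450 genes in cat2 rbohF against cat2, with all arrays and under 18 other settings; the dashed line is 0.05. Above it lie all 4 genes without cat2 rbohF replicate 1 or 3, 3 genes without cat2 replicate 2 or 3, 2 without cat2 replicate 1, and CYP71B24 without a filter.

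CYP71B36 did not pass, at 6.18, 6.53 and 6.24 in cat2 against 6.13, 5.85 and 5.58 in cat2 rbohF. Its groups did not overlap either, but by a narrow gap, and the log2 fold change was -0.46 ± 0.18 (SE; limma adjusted p = 0.117). With it, 5 of 13 P450 genes were lower on every cat2 rbohF array than on any cat2 array, as were 19.8% of all tested probe sets. No P450 gene was higher on every cat2 rbohF array, while 2626 of all 13888 tested probe sets were.

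The other 8 tested genes had log2 fold changes from -0.11 to 0.20 and none passed. CYP71B26 was at 8.93 to 9.16 in cat2 and 9.09 to 9.17 in cat2 rbohF. The log2 fold change was 0.04, with a 95% interval of -0.18 to 0.26 that leaves out falls as large as the estimates for the 4 called genes. CYP71B35 was at 6.03 to 6.06 in cat2 and 6.01 to 6.28 in cat2 rbohF, with a log2 fold change of 0.08 (95% interval -0.13 to 0.28). CYP71B34 was at 6.65, 7.22 and 6.95 in cat2 and 7.24, 7.16 and 7.02 in cat2 rbohF, with a log2 fold change of 0.20 (-0.12 to 0.51); replicate 1 was its lowest cat2 array. CYP71B28 and CYP71B29, neighbours on chromosome 1, had log2 fold changes of 0.14 (-0.15 to 0.43) and 0.06 (-0.27 to 0.39). Replicate 1 was the lowest cat2 array for CYP71B28 too, at 7.40 against 7.90 and 7.81. CYP71B5 had a log2 fold change of 0.15 (-0.21 to 0.51).

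Outside the CYP71 family, CYP78A9, which promotes growth of fruits and seeds, was at -0.05 (95% interval -0.46 to 0.36). Its cat2 arrays spread from 6.29 to 7.06 with replicate 3 high, while cat2 rbohF ran from 6.50 to 6.55. CYP84A4 was at -0.11 (-0.39 to 0.18).

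The position of the genes was not used to choose them. By the order of genes in the RefSeq table of the TAIR10.1 assembly, 11 of the 24 lie in 1 run on chromosome 3 that reaches from CYP71B16 (AT3G26150) to CYP71B37 (AT3G26330) and counts 24 genes, 18 of them with P450 symbols. CYP71B22, CYP71B23 and CYP71B24 (AT3G26200, AT3G26210 and AT3G26230) are the 7th, 8th and 10th genes of this run, and only CYP71B3, for which no probe set was named here, stands between them. These 3 fell in cat2 rbohF, whereas the other 4 tested genes of the run, CYP71B26, CYP71B34, CYP71B35 and CYP71B36, at places 19 to 23, did not pass. CYP71B36 was still lower on every cat2 rbohF array, at -0.46. Its 95% interval of -0.87 to -0.05 includes the estimate for CYP71B24. The intervals of CYP71B26, CYP71B34 and CYP71B35, standing between CYP71B24 and CYP71B36, leave out a fall of that size (lower ends -0.18, -0.12 and -0.13). No gene between CYP71B24 and CYP71B26 was tested, so the place where the falls end is not shown. Of the run's members, CYP71B16, CYP71B21, CYP71B25 and CYP71B37 were below the limit, and CYP71B21 is the direct neighbour of CYP71B22. Among the 5 genes on either side of the run, the 2 that were tested, AT3G26360 and AT3G26370, had log2 fold changes of 0.10 and -0.003. Both lie beyond CYP71B37, and no gene before CYP71B16, the end nearer to the 3 falling genes, was tested. The annotation assigns each of the 3 probe sets to 1 gene; how far they also detect RNA of similar neighbouring copies was not tested.

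**Figure D3:**
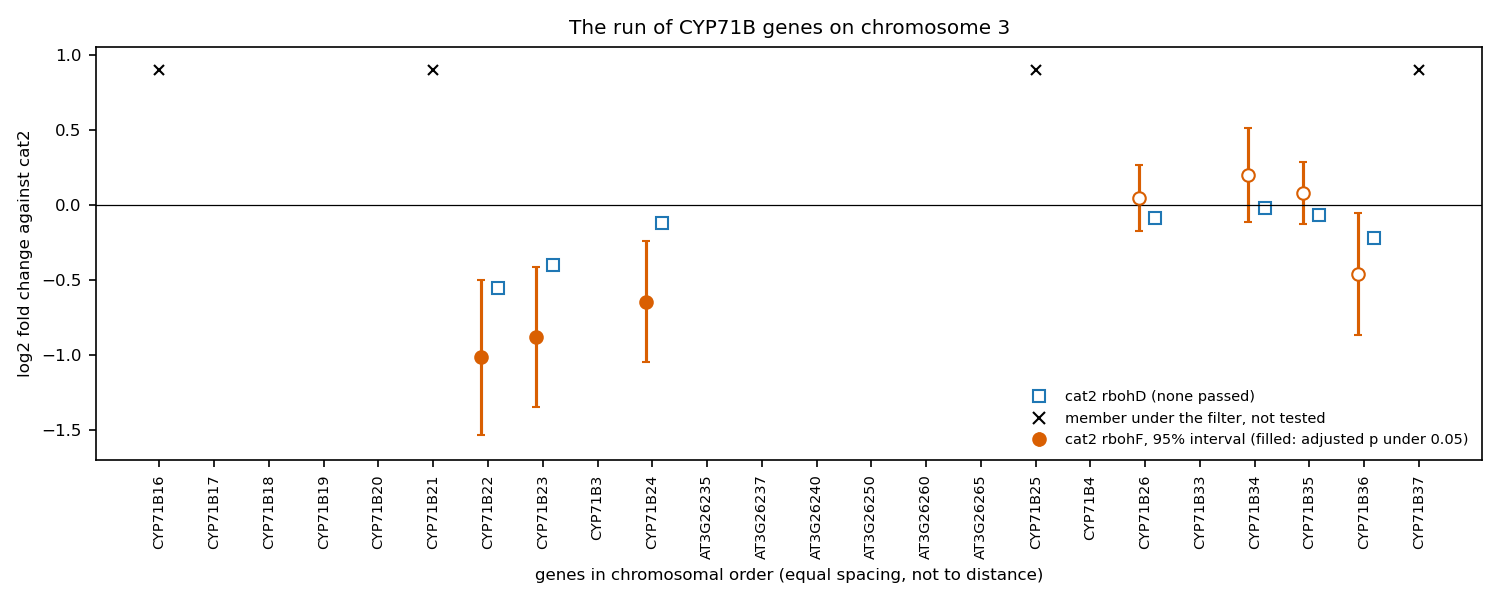
Log2 fold change against cat2 (vertical axis) of the tested genes in the CYP71B run on chromosome 3, with genes in chromosomal order at equal spacing; circles are cat2 rbohF with 95% intervals, filled where the adjusted p was under 0.05, squares are cat2 rbohD, and crosses mark members below the limit. The filled circles are CYP71B22, CYP71B23 and CYP71B24, at -1.02, -0.88 and -0.65.

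The other falling gene, CYP71B6 (AT2G24180), lies outside these runs, on chromosome 2. Of the 2 shorter runs, that on chromosome 3 from CYP71B5 to CYP71B31 had 1 tested gene of 3 members and that on chromosome 1 from CYP71B27 to CYP71B29 had 2 of 3. None of these passed in cat2 rbohF against cat2.

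For the loss of RBOHD, the reference was the same 3 cat2 arrays. No P450 gene passed (0 of 13, against 0.209% of all tested probe sets; limma). At an unadjusted p under 0.05 there were 3 genes, CYP71B6, CYP71B29 and CYP71B22, beside 10.8% of all tested probe sets. The median log2 fold change of the 13 genes was -0.07 and that of all tested probe sets -0.005.

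CYP71B6 was at 9.05, 9.33 and 9.39 in cat2 rbohD, below all 3 cat2 arrays, with a log2 fold change of -0.36 ± 0.12 (SE; limma adjusted p = 0.299). It was the 1 gene of 13 whose groups did not overlap. Of all 13888 tested probe sets, 7.24% were lower without overlap and 851 were higher without overlap. For comparison within the same gene, its mean was 9.62 in cat2, 9.26 in cat2 rbohD and 9.09 in cat2 rbohF.

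CYP71B22 was at 6.97, 7.58 and 8.11 in cat2 rbohD, so that replicate 1 lay in the range of cat2 rbohF and replicate 3 in that of cat2. CYP71B23 ran differently on the same arrays, at 9.06, 9.42 and 8.59, with replicate 3 the lowest and replicate 2 in the range of cat2. CYP71B24 (8.03, 8.11 and 7.56) and CYP71B36 (6.41, 6.10 and 5.77) also had their lowest cat2 rbohD value in replicate 3, the array that lay toward cat2 rbohF on the first principal component, whereas CYP71B22 and CYP71B6 had their highest there. Their log2 fold changes against cat2 were -0.56 ± 0.23 for CYP71B22, -0.40 ± 0.21 for CYP71B23, -0.12 ± 0.18 for CYP71B24 and -0.22 ± 0.18 for CYP71B36 (SE), with limma adjusted p of 0.426 to 0.848. Without replicate 3 of cat2 rbohD, CYP71B22 was at -0.83, CYP71B6 at -0.43, CYP71B23 at -0.19, CYP71B36 at -0.06 and CYP71B24 at 0.04, and none passed. Leaving out replicate 1 instead put CYP71B22 at -0.26.

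CYP71B29 was at 6.50, 5.97 and 6.52 in cat2 rbohD and at 5.81, 6.03 and 6.02 in cat2. It was the only gene of the 3 with an unadjusted p under 0.05 that was higher, by 0.37 ± 0.15 (SE; limma adjusted p = 0.405), and replicate 2 lay among the cat2 arrays. The cat2 rbohF arrays read 6.03, 6.13 and 5.88 for this gene. Its neighbour CYP71B28 was at 7.64 to 7.85 in cat2 rbohD, within the range of its cat2 arrays.

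The log2 fold changes of the other 7 tested genes in cat2 rbohD against cat2 were between -0.09 (CYP71B26) and 0.17 (CYP71B5), and none passed. CYP71B5 was at 6.77, 6.45 and 7.03 in cat2 rbohD against 6.48 to 6.64 in cat2, so that its cat2 rbohD arrays lay on both sides of cat2. CYP84A4 was at 5.26, 5.03 and 5.32 against 5.08 to 5.12, again with replicate 2 below and the other arrays above. CYP71B34 and CYP71B35 were at 6.77 to 7.05 and 5.85 to 6.07, and CYP78A9 at 6.47 to 6.74, inside its wide cat2 range.

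Of the 13 tested P450 genes, 8 had their largest SD in cat2 rbohD (61.5%), as did 47% of all tested probe sets. The median SD of the 13 genes was 0.13 in cat2, 0.19 in cat2 rbohD and 0.14 in cat2 rbohF on the log2 scale. Without cat2 rbohD replicate 3, 3 of the 13 genes had their largest SD in cat2 rbohD (23.1%, against 37.1% of all tested probe sets). The cat2 rbohD SD then comes from fewer arrays than those of the other genotypes, and its other arrays were not left out in turn. How far the count rested on that array was therefore not settled. With all arrays, the largest SD was that of CYP71B22 in cat2 rbohD, at 0.57, against 0.09 in cat2 and 0.14 in cat2 rbohF.

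The double mutants were compared directly, which tests whether the loss of RBOHF and the loss of RBOHD differ in effect. No P450 gene passed (0 of 13, against 1.92% of all tested probe sets; limma), so that the falls in cat2 rbohF are not shown to differ from the values in cat2 rbohD. At an unadjusted p under 0.05 there were 2, CYP71B24 and CYP71B23, beside 22.2% of all tested probe sets. Their log2 fold changes were -0.52 ± 0.18 and -0.48 ± 0.21 (SE; limma adjusted p = 0.132 and 0.217), lower in cat2 rbohF. Without cat2 rbohD replicate 3 both passed, at -0.69 each (limma adjusted p = 0.0392 and 0.0481), while the count of all called probe sets went from 267 to 1065. Among the 13 tested P450 genes, none was without overlap between the double mutants. Of all 13888 tested probe sets, 13.4% were lower without overlap and 1740 were higher without overlap. Without cat2 rbohD replicate 3, 3 P450 genes had no overlap, but the smaller group overlaps less easily and no share of all probe sets was taken there.

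In the same comparison CYP71B22 was at -0.46 (95% interval -0.98 to 0.06), CYP71B6 at -0.17 (-0.43 to 0.10) and CYP71B29 at -0.31 (-0.64 to 0.02). Each of these intervals includes 0, and that of CYP71B22 also includes a difference nearly as large as its change against cat2. The value of CYP71B22 depended on the cat2 rbohD arrays: it was -0.18 without replicate 3 and -0.75 without replicate 1 (limma adjusted p = 0.519 and 0.0965). Without replicate 3, CYP71B6 was at -0.10 and CYP71B36 at -0.40. With all arrays, the remaining 8 genes were each between -0.24 and 0.22.

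**Figure D4:**
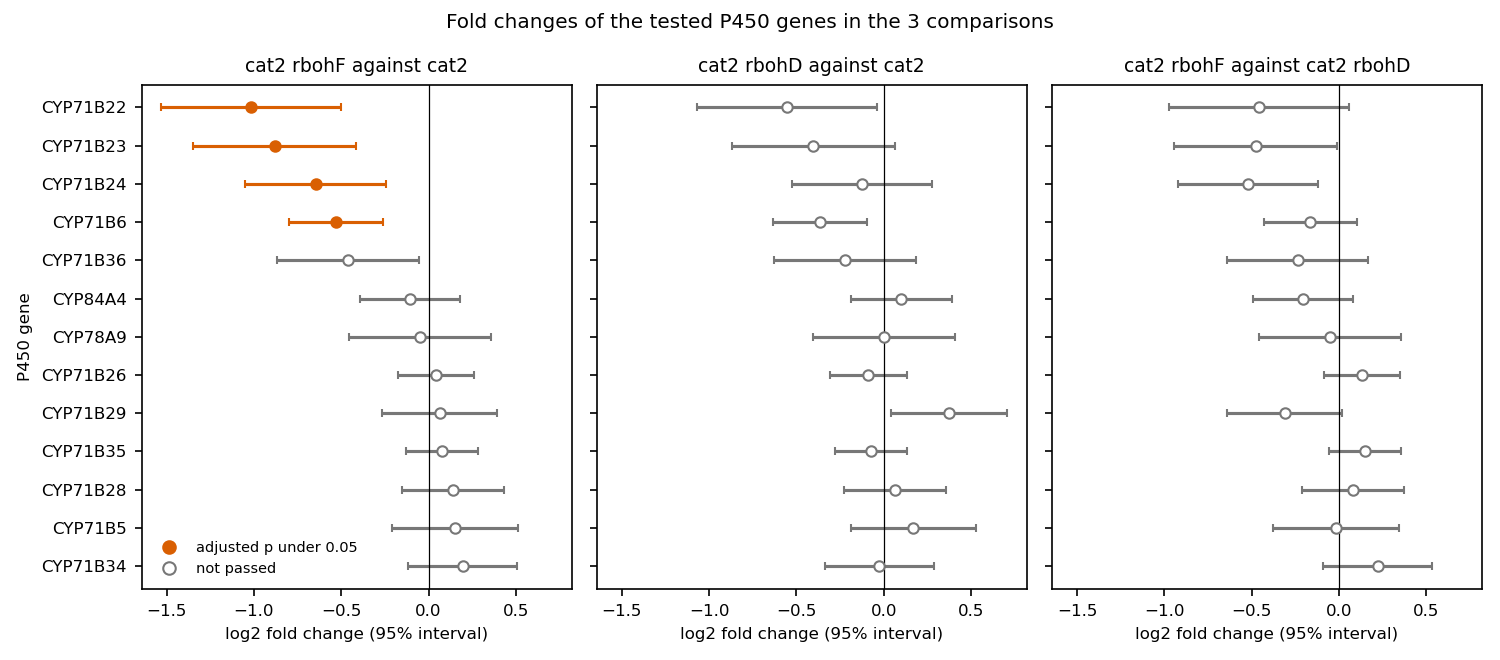
Log2 fold changes with 95% intervals (horizontal axes) of the 13 tested P450 genes in the 3 comparisons, ordered by cat2 rbohF against cat2; filled points have an adjusted p under 0.05. CYP71B22, CYP71B23, CYP71B24 and CYP71B6 are filled in the left panel, and no point is filled in the other panels.

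Genes that work with or beside P450 enzymes could be followed only in part. None of the 10 fixed redox partners, namely P450 reductases, cytochromes b5 and their reductase and membrane steroid-binding proteins, had a named probe set, nor had the fixed brassinosteroid, gibberellin, abscisic acid and strigolactone genes. Over the 10 pathway lists, 7 of 87 loci had a named probe set and 6 were tested. In cat2 rbohF against cat2, CCR2, which encodes a cinnamoyl-CoA reductase, had a log2 fold change of -1.21 ± 0.13, and DFR, which encodes dihydroflavonol reductase, was higher by 1.27 ± 0.38 (SE; limma adjusted p = 0.00139 and 0.048), 2 of 3 tested phenylpropanoid and flavonoid genes. The call of DFR was lost in 10 of 18 other settings (limma adjusted p up to 0.152), that of CCR2 in none of 17. HCT, whose product makes the ester that CYP98A3 hydroxylates, did not pass at -0.19 (limma adjusted p = 0.256). UGT74B1, which glucosylates glucosinolate precursors, was at 0.14, the lycopene cyclase gene LYCB at 0.07 and OPCL1, of jasmonate synthesis, at 0.02, and none of these passed. In cat2 rbohD against cat2, CCR2 fell by 1.12 ± 0.13 (SE; limma adjusted p = 0.0151), and none of the other 5 passed; the direct comparison called none of the 6.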

How the data were processed

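Each deposited value is the log2 signal of a probe set on 1 Affymetrix array. The authors obtained it with GCRMA, as the submitters' processing notes name it without a version. That method estimates background from probe sequence and equalises probe intensities between arrays before summarising them, so a change common to most transcripts would be lost. Array medians were 6.05 to 6.12. Arrays have no read depth; 3 arrays per genotype limit the precision.

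Of 22810 probe sets, 64 controls were left out and 13888 passed the filter. The model had 1 mean per genotype over 9 arrays (6 residual degrees of freedom) and was fitted by lmFit and eBayes of limma 3.58.1 under R 4.3.3, two-sided, with Benjamini-Hochberg adjustment over all 13888 in each comparison and calls at an adjusted p under 0.05. The fit was tested on simulated data. Intervals are limma's unadjusted 95% intervals. In the array annotation, 13513 probe sets name 1 gene and 503 name several; all 24 genes matched the RefSeq table of TAIR10.1, used for names and gene order only.

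Deviations of same-numbered cat2 and cat2 rbohF arrays from their group means correlated at 0.14, 0.15 and 0.17. This met a rule of over 0.1 in each pair. Without correlations for arrays of unlike number the rule does not establish pairing, and the labels give only numbers. Pairs with cat2 rbohD did not meet the rule (-0.24 to 0.25), although those with cat2 rbohF reached 0.25 for replicate 2 and 0.15 for replicate 3. The SEs, intervals and adjusted p quoted above come from the fit without a replicate block, which makes no use of replicate numbers. The block was fitted over all 9 arrays, those of cat2 rbohD included. With the block, limma adjusted p in cat2 rbohF against cat2 was 0.0277 for CYP71B22 and 0.00595 for CYP71B23. For CYP71B24 it was 0.0122 and for CYP71B6 0.0119.

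Named genes are, by rule, the called members of each comparison, up to 3 of each role group, the 5 with the highest mean, the 5 with the smallest p for cat2 rbohD, and called genes of the fixed lists; this covered nearly all tested genes, and the rest are given for completeness. The genes and lists were chosen with earlier results of these data known. Gene order and spread by genotype, with and without cat2 rbohD replicate 3, were examined after the values were seen.

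Alternatives were 2 other filters, 2 other normalizations, leaving out each array, a replicate block, array weights, robust eBayes, a trended prior, and a fit to the 6 arrays of a pair. Averaging probe sets of a gene was not run, as each gene has 1.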

Additional observations from a re-analysis of the deposited data

How the results depend on the processing

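In cat2 rbohF against cat2 the count of 4 called P450 genes ranged from 0 to 4 when 1 array was left out: 2 without cat2 replicate 1, 1 without cat2 replicate 2, 1 without cat2 replicate 3 and 0 without cat2 rbohF replicate 1 or 3. Against cat2 rbohD it was 2 without cat2 rbohD replicate 3 and 0 without any other array, a range of 0 to 2. In cat2 rbohD against cat2 it was 0 in all 18 settings. The replicate block gave 4, 0 and 0, changed none of 39 member calls, and called 54 probe sets in all for cat2 rbohD against cat2, against 29. With 1 array left out, genes without overlap ranged from 1 to 5 in cat2 rbohD against cat2. They ranged from 0 to 4 in cat2 rbohF against cat2 rbohD, where it was 2 of 24 genes without a filter. Smaller groups overlap less often, and no share of all probe sets without overlap was taken at these settings. Nothing particular to P450 genes was therefore read from these counts.

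Sign changes occurred only in values that passed in no setting. With 1 array left out, log2 fold changes in cat2 rbohF against cat2 ranged from -0.011 to 0.24 for CYP71B28, -0.011 to 0.13 for CYP71B29, -0.032 to 0.083 for CYP71B26, -0.19 to 0.20 for CYP78A9, -0.0062 to 0.13 for CYP71B35 and -0.20 to 0.044 for CYP84A4. In cat2 rbohD against cat2 they ranged from -0.17 to 0.12 for CYP71B34 (0.0032 with arrays centred on their medians), -0.14 to 0.25 for CYP78A9 (-0.024 with array weights), -0.090 to 0.16 for CYP71B28 and -0.23 to 0.044 for CYP71B24. In cat2 rbohF against cat2 rbohD they ranged from -0.17 to 0.12 for CYP71B5 (0.015 with array weights) and -0.10 to 0.030 for CYP78A9. The causes were not tested.

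Over all probe sets, the 2273 calls for cat2 rbohF against cat2 fell to as few as 817 without 1 array. The 29 for cat2 rbohD against cat2 were 12 with the stricter filter, 18 with array weights, 15 with only the 6 arrays compared and 7 to 35 without 1 array. The 267 of the direct comparison were 164 without a filter, 455 with the stricter filter, 703 with array weights, 2 with only the 6 arrays compared and 1 to 1065 without 1 array; quantile normalization again split them into 157 higher and 127 lower, against 120 and 147. Signal near background limits the 11 dim genes.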
